A study of Mus musculus with 9 samples.

Results

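The genes for platelet-derived growth factor (PDGF) ligands and receptors in mouse comprise 4 ligand genes, Pdgfa, Pdgfb, Pdgfc and Pdgfd, and 2 receptor genes, Pdgfra and Pdgfrb. They were chosen by gene symbol and made up 6 of the 54532 genes of the count table. RNA was taken from the lambdoidal junction, where the maxillary, lateral nasal and medial nasal prominences meet and fuse into the upper lip and primary palate. The C57BL/6J embryos were at E10.5, E11.5 or E12.5 (E, embryonic day), and each stage was represented by 3 libraries. No genotype or treatment other than the strain is given for any stage, and each library was a pool of many embryos, so the spread between libraries is the spread between pools and not between single embryos.

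PDGF ligands are secreted dimers that bind receptor tyrosine kinases on neighbouring cells. The PDGF-A and PDGF-C chains act mainly through the alpha receptor, the PDGF-B chain binds both receptors, and the PDGF-D chain acts mainly through the beta receptor. In the embryonic face the alpha receptor is known from cranial neural crest mesenchyme, with PDGF-A and PDGF-C made largely by the overlying epithelium, and loss of the receptor, or of both of these ligands, causes facial clefts. The beta receptor is best known from pericytes and vascular smooth muscle, which PDGF-B from endothelium recruits to vessels.

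Sequencing depth was even, with 16959676 to 17756251 counts per library at E10.5, from 18280441 to 20836804 at E11.5 and from 16581009 to 17919664 at E12.5. E10.5 replicate 3 stood apart from its group. The standard deviation (SD) of the log2 difference over genes was 0.711 and 0.703 between it and replicates 1 and 2, against 0.393 between those 2. Relative to the mean of replicates 1 and 2, its genes also followed their guanine and cytosine (GC) content, with a Spearman rho of -0.546 over 16363 genes. The same measure was 0.438 and 0.469 in E10.5 replicates 1 and 2, each taken against a mean that includes replicate 3. The tests of the 6 genes between E10.5 and a later stage are therefore given with and without that library. Markers of facial neural crest mesenchyme, the tissue expected at this site, were abundant at every stage. Their summed level over 15 genes was 1560 to 2960 CPM (counts scaled to a common library size by the trimmed mean of M-values) at E10.5, from 4600 to 5180 at E11.5 and from 5910 to 7060 at E12.5, and none of the 15 was at 0 throughout a stage.

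Pdgfra encodes the alpha receptor and is annotated in GRCm38 at chr5:75152292-75198215 on the plus strand (ENSMUSG00000029231). Its annotated exons cover 10024 bases in total. Pdgfa encodes the A chain and lies on the minus strand of the same chromosome, at chr5:138976014-138997370 (ENSMUSG00000025856), with 3119 exon bases. These 2 genes were the members that differed between the 3 stages in the test of all stages together, and the window from 250 bases before to 50 bases after a RefSeq transcription start is shown for each, in GRCm38.p6 and written in the sense of the gene. The Pdgfra window is chr5:75152001-75152300 on the plus strand, with capitals marking the E-box letters CANNTG, which begin at -182 and 18 relative to the start. The Pdgfa window is chr5:138994895-138995194 on the minus strand, 1 of 2 Pdgfa starts in the RefSeq table, with capitals marking GC boxes (GGGCGG, here read on the opposite strand) that begin at -93 and -86.
Pdgfra: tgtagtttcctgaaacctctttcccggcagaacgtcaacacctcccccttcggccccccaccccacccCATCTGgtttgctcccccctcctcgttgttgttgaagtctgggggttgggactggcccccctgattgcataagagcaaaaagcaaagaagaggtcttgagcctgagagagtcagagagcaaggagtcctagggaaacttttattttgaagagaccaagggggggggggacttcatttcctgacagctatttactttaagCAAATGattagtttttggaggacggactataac
Pdgfa: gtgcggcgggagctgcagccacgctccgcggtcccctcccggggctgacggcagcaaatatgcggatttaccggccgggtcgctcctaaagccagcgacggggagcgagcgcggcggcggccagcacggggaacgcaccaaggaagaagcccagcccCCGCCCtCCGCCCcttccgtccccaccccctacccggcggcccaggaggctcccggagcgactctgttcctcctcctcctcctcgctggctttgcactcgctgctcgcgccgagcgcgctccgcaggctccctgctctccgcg
The windows were searched on both strands for the GC box (GGGCGG), the CCAAT box (CCAAT), the TATA box (TATAAA) and the E-box. Of 32851 RefSeq windows of this length, 35.7% held the GC box, 37.4% the CCAAT box, 13.6% the TATA box and 72.3% the E-box, so each of these matches is common. GC content was 51.0% in the Pdgfra window and 73.3% in the Pdgfa window, against a median of 52.7% over all windows. The second Pdgfa window held GGGCGG at 1 place, the Pdgfd window held TATAAA at 1 place, at -160, and the Pdgfc window held none of these letters. The RefSeq table held 4 of the 6 members.

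Pdgfra rose between E10.5 and E11.5 and was the only member called changed. Its level was 183, 161 and 95.6 CPM in E10.5 replicates 1 to 3, 358, 337 and 362 CPM at E11.5, and 378, 486 and 405 CPM at E12.5. Every E11.5 library lay above every E10.5 library, and every E12.5 library above every E11.5 library. Libraries were apart in either direction for 36.7% of all genes in E11.5 vs. E10.5 and for 35.3% in E12.5 vs. E11.5, so this was common. The mean was 147 ± 45.6 CPM at E10.5, 352 ± 13.3 CPM at E11.5 and 423 ± 56.1 CPM at E12.5 (SD, n = 3). By the edgeR quasi-likelihood test, Pdgfra was 2.41-fold higher at E11.5 than at E10.5, a log2 fold change of 1.27 with a standard error (SE) of 0.22 and a Benjamini-Hochberg adjusted p of 0.01. Genes were called changed where the adjusted p did not exceed 0.05 and the level rose or fell by 1 or more on the log2 scale. In this comparison 6.07% of the 15708 genes tested were called, 3.46% up and 2.61% down. E12.5 vs. E10.5 gave a 2.90-fold higher level, a log2 fold change of 1.54 (SE 0.24, adjusted p = 0.00111), where 15% of all genes were called, 9.97% up and 5.08% down. From E11.5 to E12.5 the log2 difference was 0.26 (SE 0.13, adjusted p = 0.21, 95% interval -0.028 to 0.55), which was not called. In that interval 5.1% of all genes were called, 4.14% up and 0.962% down.

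The size of the Pdgfra difference depended in part on E10.5 replicate 3, in which the level was 0.555 times the mean of replicates 1 and 2. Without that library the log2 fold change was 1.04 (adjusted p = 8.52e-07) for E11.5 vs. E10.5 and 1.31 (adjusted p = 0.000498) for E12.5 vs. E10.5, and both remained called. Leaving out E11.5 replicate 1 or E11.5 replicate 3 raised the adjusted p for E11.5 vs. E10.5 to 0.061 and 0.0522. The change in the second interval minus that in the first was -0.998 on the log2 scale (SE 0.35, adjusted p = 0.251), so a difference between the intervals was not shown.

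The summed mesenchyme markers were also higher after E10.5, with Col3a1 at 22% and Col1a2 at 21.2% of the sum over the 9 libraries. For E11.5 vs. E10.5, 5 of the 15 were called up and 0 down, where 3.46% of all genes were called up. For E12.5 vs. E11.5, in which Pdgfra was not called, 4 were called up and 0 down, where 4.14% of all genes were called up. For E12.5 vs. E10.5, the counts were 9 up and 1 down, where 9.97% of all genes were called up and 5.08% down. The summed marker level in E10.5 replicate 3 was 0.53 times the mean of replicates 1 and 2, close to the 0.555 of Pdgfra. As a percentage of the summed mesenchyme level, Pdgfra was 5.49 to 6.2% at E10.5, from 6.98 to 7.32% at E11.5 and from 5.36 to 7.29% at E12.5, a description whose form was chosen after the values were seen. In bulk tissue, fewer cells of a type and less RNA per cell cannot be told apart, and the part of mesenchyme abundance in the Pdgfra difference was not tested.

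**Figure D1:**
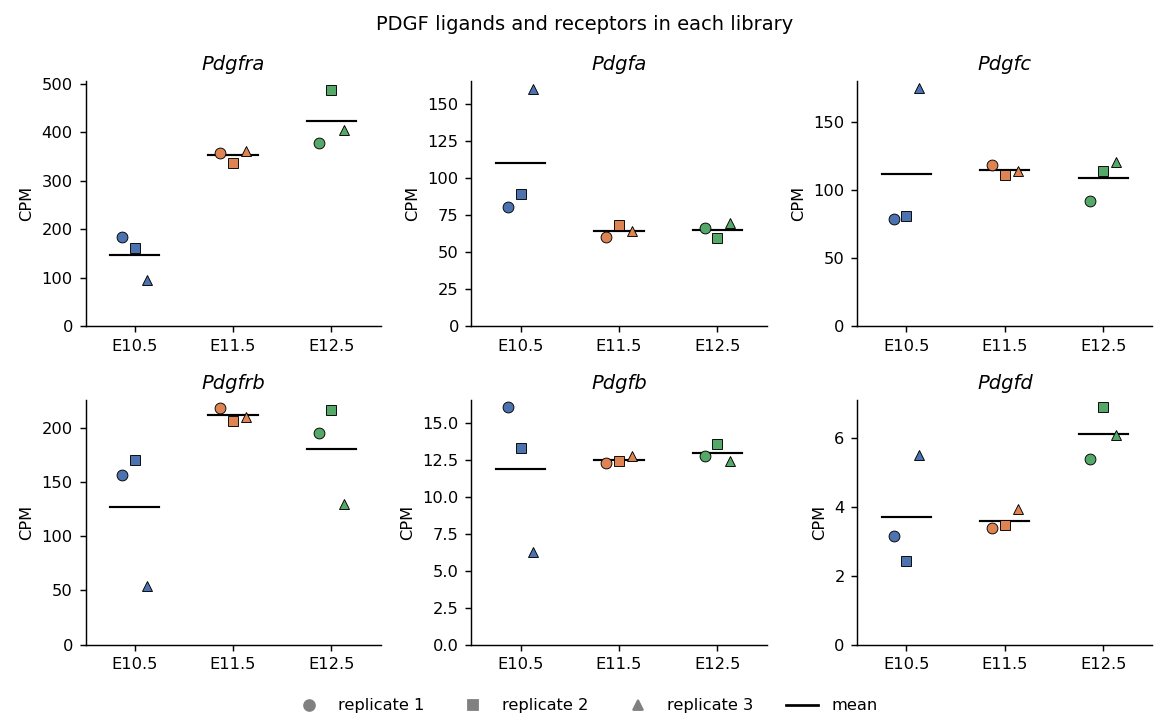
Level of each PDGF ligand and receptor gene in CPM in each of the 9 libraries, with stage on the horizontal axis, a marker shape per replicate number and a line at the mean of the 3 libraries of a stage. Pdgfra is at 337 CPM or more in every E11.5 and E12.5 library and at 183 CPM or less in every E10.5 library, and E10.5 replicate 3 is the highest or lowest E10.5 library for all 6 genes.

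Pdgfrb encodes the beta receptor and lies on the plus strand at chr18:61045150-61085061 in GRCm38 (ENSMUSG00000024620), with 5478 exon bases. Its level was 156, 170 and 54.0 CPM at E10.5, 218, 206 and 210 CPM at E11.5, and 195, 216 and 129 CPM at E12.5. The E11.5 libraries were all above the E10.5 libraries, where 36.7% of all genes had libraries apart in either direction. The E12.5 libraries overlapped both. The log2 fold change was 0.74 for E11.5 vs. E10.5 (SE 0.36, adjusted p = 0.22), -0.23 for E12.5 vs. E11.5 (SE 0.17, adjusted p = 0.385) and 0.52 for E12.5 vs. E10.5 (SE 0.36, adjusted p = 0.324), and none passed the test. E10.5 replicate 3 held 0.331 times the Pdgfrb level of the other E10.5 libraries. Without it the spread was smaller and the log2 fold change for E11.5 vs. E10.5 was 0.38 with an adjusted p of 0.000714, past the p threshold but under the fold threshold. For E12.5 vs. E10.5 it was then 0.16 (adjusted p = 0.607).

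Markers of pericytes and smooth muscle summed to 180 to 347 CPM at E10.5, 273 to 286 CPM at E11.5 and 140 to 259 CPM at E12.5. Notch3 made up 82.7% of that sum over the 9 libraries, and 1 of the 12 markers was at 0 in all E11.5 libraries and 1 in all E12.5 libraries. The sum thus mainly follows 1 gene. Of 8 markers tested, 1 was called up and 2 down in E11.5 vs. E10.5, where 3.46% and 2.61% of all genes were. In E12.5 vs. E11.5, 2 of 8 were called up and 1 down, against 4.14% and 0.962% of all genes. The median log2 difference of the list was 0.018 and 0.117. In E10.5 replicate 3 the sum was 0.53 times that of replicates 1 and 2. Pdgfrb was thus lower in that library beside lower pericyte, mesenchyme and endothelial markers, the last at 0.366 times. Between stages it did not keep a steady share of these sums. As a percentage of the pericyte and smooth muscle sum, Pdgfrb was 30.1 to 48.9% at E10.5, from 75.3 to 77.0% at E11.5 and from 83.5 to 97.4% at E12.5. Against the mesenchyme sum it was 3.46 to 5.79%, 4.05 to 4.48% and 2.19 to 3.24%. These percentages are a description only, and the part of these cells in the Pdgfrb level was not tested.

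Among the ligands, Pdgfa was lower after E10.5 and passed the test over the 3 stages, but not those between single stages. Its level was 80.4, 89.3 and 160 CPM at E10.5, 59.9, 68.5 and 64.5 CPM at E11.5, and 66.3, 59.3 and 69.7 CPM at E12.5. Every E10.5 library was above every later library, and the E11.5 and E12.5 libraries overlapped. The log2 difference was -0.77 for E11.5 vs. E10.5 (SE 0.25, adjusted p = 0.0842) and -0.75 for E12.5 vs. E10.5 (SE 0.25, adjusted p = 0.0502), neither of which passed the test. It was 0.011 for E12.5 vs. E11.5 (SE 0.12, adjusted p = 0.961), with a 95% interval of -0.26 to 0.28. Libraries of the 2 stages did not overlap for 36.7% of all genes in E11.5 vs. E10.5 and for 42.4% in E12.5 vs. E10.5, so separated libraries alone were common. Without E10.5 replicate 3, the log2 difference was -0.39 for E11.5 vs. E10.5 (adjusted p = 0.00214) and -0.37 for E12.5 vs. E10.5 (adjusted p = 0.0941).

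Of the Pdgfa exon bases, 26.07% overlap exons of 6330403L08Rik on the opposite strand, and whether counting used strand is not given in the sources used here. Reads of the 2 genes may therefore be mixed. 6330403L08Rik was itself at 20.997 to 25.4 CPM at E10.5, 9.85 to 14.8 CPM at E11.5 and 9.36 to 14.5 CPM at E12.5. Epithelial markers, which include Epcam and Cdh1, summed to 628 to 1130 CPM at E10.5, 671 to 688 CPM at E11.5 and 913 to 997 CPM at E12.5. In E10.5 replicate 3 their sum was 1.69 times that of replicates 1 and 2, beside 1.89 times for Pdgfa. As a percentage of the epithelial sum, Pdgfa was 12.6 to 14.2% at E10.5, from 8.92 to 10.2% at E11.5 and from 6.43 to 7.26% at E12.5. Stages did not overlap, and no test was made, since this form was chosen after the values were seen. From E11.5 to E12.5 Pdgfa itself hardly differed (log2 0.011), so the lower share reflects the higher sum. In that interval 3 of the 15 epithelial markers were called up and 0 down, where 4.14% of all genes were called up. The median log2 difference of the list was 0.022, so most markers did not share the rise of the sum.

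Pdgfc encodes the C chain, the other main ligand of the alpha receptor, and is annotated at chr3:81036416-81214040 on the plus strand (ENSMUSG00000028019), with 5089 exon bases. Its level was 79.0, 81.1 and 176 CPM at E10.5, 119, 111 and 114 CPM at E11.5, and 92.4, 114 and 121 CPM at E12.5. A single library, E10.5 replicate 3, was above all later libraries, while E10.5 replicates 1 and 2 were below all of them. With all libraries the log2 difference was 0.037 for E11.5 vs. E10.5 (SE 0.29, adjusted p = 0.951) and -0.031 for E12.5 vs. E10.5 (SE 0.29, adjusted p = 0.954). Without E10.5 replicate 3 it was 0.52 (adjusted p = 7.65e-05) and 0.46 (adjusted p = 0.0608). The Pdgfc result for the first interval thus turned on that library, whose Pdgfc level was 2.19 times that of replicates 1 and 2. E12.5 vs. E11.5, which does not use it, gave -0.077 (SE 0.13, adjusted p = 0.723).

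Pdgfb encodes the B chain and is annotated at chr15:79995874-80014977 on the minus strand (ENSMUSG00000000489), with 4161 exon bases. Its level was 16.1, 13.3 and 6.26 CPM at E10.5, 12.3, 12.5 and 12.7 CPM at E11.5, and 12.8, 13.6 and 12.5 CPM at E12.5. The later stages varied little, with means of 12.5 ± 0.242 CPM and 12.9 ± 0.578 CPM (SD, n = 3). None of the 3 comparisons passed the test. The log2 differences were 0.075 for E11.5 vs. E10.5 (SE 0.30, adjusted p = 0.9), 0.047 for E12.5 vs. E11.5 (SE 0.14, adjusted p = 0.847) and 0.13 for E12.5 vs. E10.5 (SE 0.30, adjusted p = 0.791). The 95% interval of the second, -0.26 to 0.35, was the narrowest of these. Without E10.5 replicate 3, where Pdgfb was at 0.426 times and the summed endothelial markers at 0.366 times the other E10.5 libraries, the difference was -0.23 (adjusted p = 0.182) for E11.5 vs. E10.5 and -0.17 (adjusted p = 0.525) for E12.5 vs. E10.5. Pdgfb was 3.66 to 4.59% of the endothelial sum at E10.5, from 3.46 to 3.53% at E11.5 and from 3.02 to 3.24% at E12.5, again as a description only. At 60.02%, the GC content of its longest transcript was at percentile 95.5 of the genes above a low limit on total counts.

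Pdgfd encodes the D chain and is annotated at chr9:6168584-6378850 on the plus strand (ENSMUSG00000032006), with 3154 exon bases. It had the fewest reads of the members, with 42 to 128 counts per library. Its level was 3.15, 2.44 and 5.51 CPM at E10.5, 3.39, 3.46 and 3.95 CPM at E11.5, and 5.41, 6.90 and 6.08 CPM at E12.5. All E12.5 libraries were above all E11.5 libraries, as for 35.3% of all genes. Between those stages the log2 difference was 0.76 (SE 0.20, adjusted p = 0.0307), a 1.70-fold higher level that passed the p threshold, as 12.2% of all genes did, but not the fold threshold. E12.5 vs. E10.5 gave 0.74 (SE 0.32, adjusted p = 0.124) with all libraries and 1.15 (adjusted p = 0.00951) without E10.5 replicate 3, in which case Pdgfd was called. E11.5 vs. E10.5 gave -0.034 (SE 0.32, adjusted p = 0.959), and 0.37 (adjusted p = 0.243) without that library. Pdgfd was at the other end of GC content from Pdgfb, with 39.89% and percentile 6.0, and E10.5 replicate 3 held 1.97 times the level of replicates 1 and 2. After removal of each library's trend with GC content, Pdgfd in that library was at 4.26 CPM against 3.60 and 2.90 CPM in replicates 1 and 2, and the log2 difference for E12.5 vs. E10.5 was 0.84 (adjusted p = 0.0255), still under the fold threshold.

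**Figure D2:**
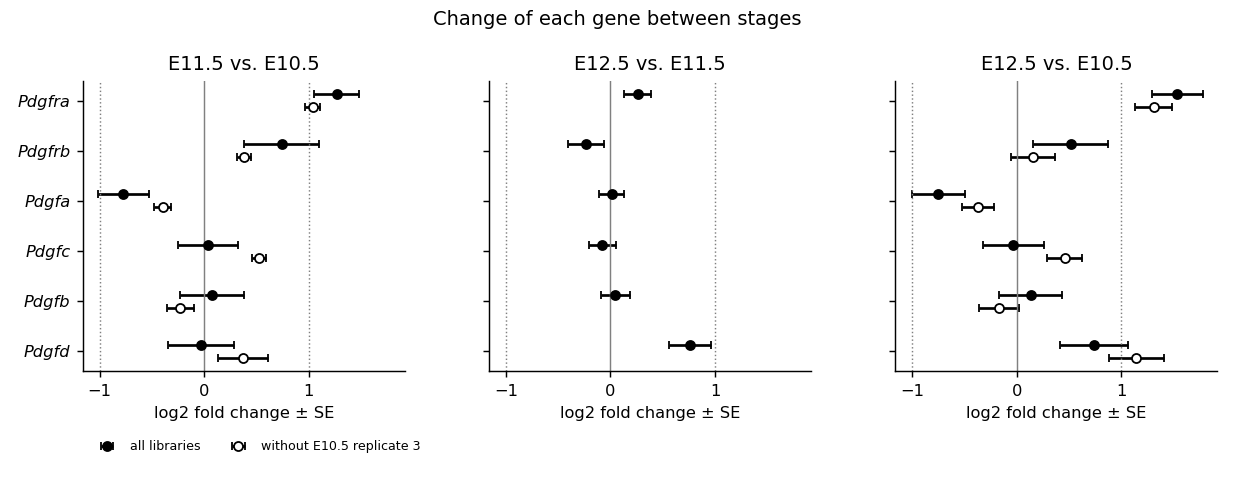
Log2 fold change with its SE (horizontal bars) for each gene in the 3 comparisons from the edgeR fit, with all libraries (filled) and without E10.5 replicate 3 (open), and dotted lines at the fold threshold of 1 in either direction. Pdgfra is at 1.27 and 1.54 in the 2 comparisons with E10.5, and the open points of Pdgfc and Pdgfd lie to the right of the filled ones.

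Tested over the 3 stages together in a fit of all 9 libraries, Pdgfra had an adjusted p of 0.000462 and Pdgfa one of 0.0216. The other members did not pass, with adjusted p of 0.0785 for Pdgfd, 0.22 for Pdgfrb, 0.928 for Pdgfb and 0.972 for Pdgfc. Of all genes, 28.3% of 16375 passed this test. Without E10.5 replicate 3, Pdgfc (adjusted p = 0.0171) and Pdgfd (adjusted p = 0.00403) passed as well. Pdgfa no longer passed when E11.5 replicate 1, E11.5 replicate 3 or E12.5 replicate 1 was left out (adjusted p of 0.0544, 0.0508 and 0.0567). No member differed between the 2 intervals in log2 change, while 1.18% of all genes did. Before adjustment 1 of the 6, Pdgfra, had an edgeR p under 0.05, and 0 of the 6 passed with DESeq2.

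The library that stands apart moved every member, in opposite directions. In E10.5 replicate 3, Pdgfa, Pdgfc and Pdgfd were higher and Pdgfb, Pdgfra and Pdgfrb lower than in replicates 1 and 2. Among all 16375 genes, deviations at least as large in either direction were seen for 3.10% (Pdgfrb) to 17.88% (Pdgfra). The marker sums of epithelium (1.69 times), neural tissue (1.23 times), glia and pigment cells (1.15 times) and erythroid cells (1.12 times) were higher in that library. Those of macrophages were at 0.764 times, pericytes and smooth muscle at 0.53, mesenchyme at 0.53 and endothelium at 0.366. The cause of this library's position was not tested.

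**Figure D3:**
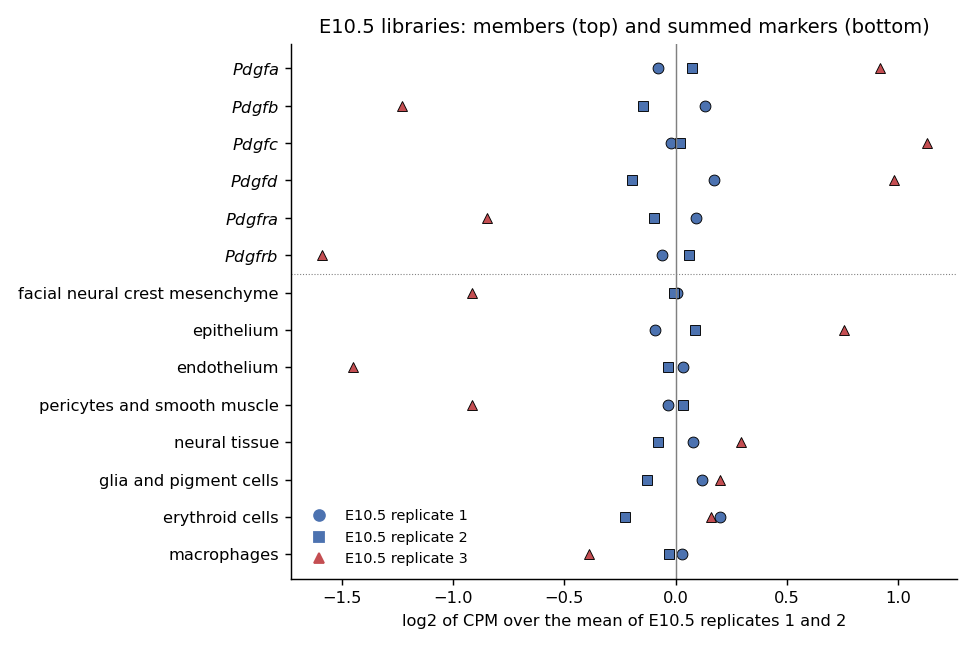
Log2 of the level in each E10.5 library over the mean of E10.5 replicates 1 and 2, for the 6 genes (above the dotted line) and for the summed CPM of 8 marker lists (below it). Replicate 3 (triangles) is at 0.918 for Pdgfa and -1.59 for Pdgfrb, with epithelial markers on the side of Pdgfa and Pdgfc and mesenchymal, endothelial and pericyte markers on the side of the receptors and Pdgfb.

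Levels of different genes were compared as CPM per kilobase of exon length. That length covers all annotated exons of a gene, 10024 bases for Pdgfra and 5478 for Pdgfrb, and the transcripts in use were not determined. The order between genes therefore rests on these lengths. In CPM without length, the E11.5 mean was 352 for Pdgfra and 211 for Pdgfrb, the reverse of their order per kilobase. At E10.5 the order of the means was Pdgfa (35.3), Pdgfrb (23.1), Pdgfc (22.0), Pdgfra (14.6), Pdgfb (2.86) and Pdgfd (1.17) CPM per kilobase. Neighbours in this order overlapped between libraries, except Pdgfra and Pdgfb. At E11.5 the receptors were highest, with Pdgfrb at 38.6 and Pdgfra at 35.1 CPM per kilobase, followed by Pdgfc (22.5), Pdgfa (20.6), Pdgfb (3.0) and Pdgfd (1.14). Only Pdgfc and Pdgfa overlapped among neighbours at that stage. At E12.5 Pdgfra led with 42.2, ahead of Pdgfrb (32.9), Pdgfc (21.4), Pdgfa (20.9), Pdgfb (3.11) and Pdgfd (1.94) CPM per kilobase. There the libraries of Pdgfra and Pdgfrb, of Pdgfrb and Pdgfc, and of Pdgfc and Pdgfa overlapped. The E10.5 order rested in part on replicate 3. Without it, Pdgfrb (29.8) was ahead of Pdgfa (27.2), and Pdgfra (17.2) ahead of Pdgfc (15.7), in both remaining libraries, followed by Pdgfb (3.53) and Pdgfd (0.886 CPM per kilobase). Pdgfb and Pdgfd had the lowest means at all stages.

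**Figure D4:**
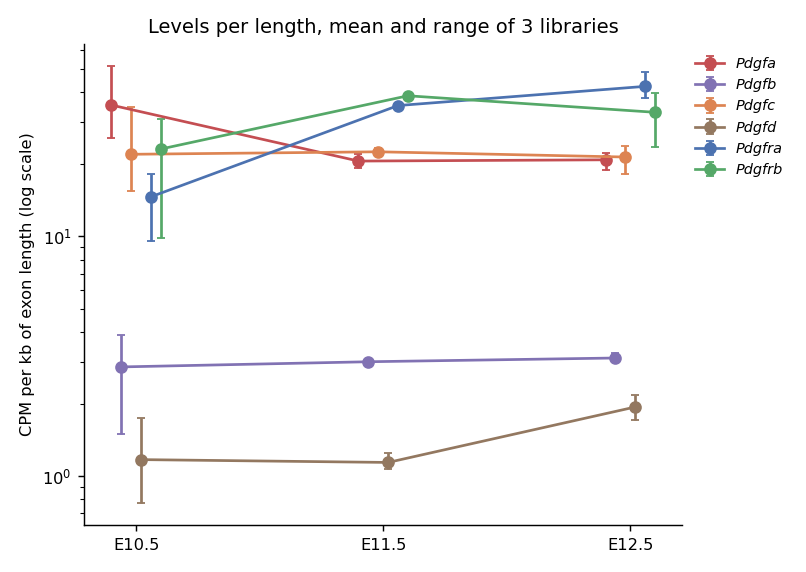
Mean level per stage in CPM per kilobase of exon length on a log axis for the 6 genes, with bars from the lowest to the highest of the 3 libraries. Pdgfra climbs from 14.6 to 42.2 CPM per kilobase between E10.5 and E12.5, and the bars of Pdgfb and Pdgfd lie below those of the other members at every stage.

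Ratios within a library do not depend on its scaling. For 5 such ratios, values of CPM per kilobase were compared between stages by an exact permutation test over the 1680 assignments of the 9 libraries, where the smallest possible p is 0.00357, with p adjusted over the 5. The ratio of Pdgfa plus Pdgfc to Pdgfra, its receptor, was 2.26, 2.78 and 9.01 at E10.5, 1.193, 1.302 and 1.195 at E11.5, and 1.05, 0.854 and 1.14 at E12.5. The E10.5 libraries were all above the later ones. These ligands are known largely from epithelium and the receptor from mesenchyme, so the ratio may also follow the mix of these tissues. In E10.5 replicate 3 the summed epithelial markers were at 1.69 times and the mesenchyme markers at 0.53 times the mean of replicates 1 and 2. The part of tissue mix in the ratio was not tested. The ratio differed between stages with all libraries (exact p = 0.00357, adjusted p = 0.0179). It still passed without any 1 of the E10.5 libraries, and did not without any 1 of the E11.5 or E12.5 libraries (exact test, adjusted p of 0.0536 to 0.0833). The ratio of Pdgfra to Pdgfrb was 0.640, 0.518 and 0.967 at E10.5, 0.898, 0.892 and 0.941 at E11.5, and 1.06, 1.23 and 1.71 at E12.5 (exact p = 0.0143, adjusted p = 0.0357). All E12.5 libraries were above 1, and all earlier ones below it, a position that rests on the gene lengths used.

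The ratio of Pdgfa to Pdgfc was 1.66, 1.80 and 1.49 at E10.5, 0.822, 1.01 and 0.921 at E11.5, and 1.17, 0.849 and 0.941 at E12.5 (exact p = 0.0214, adjusted p = 0.0357). Per kilobase, Pdgfa was above Pdgfc in every E10.5 library, E10.5 replicate 3 included, and the later stages overlapped. In CPM without length, Pdgfa was below Pdgfc in E10.5 replicate 3 (160 against 176 CPM). For the ratio of Pdgfb to Pdgfd (exact p = 0.511, adjusted p = 0.511), the E10.5 libraries spanned 0.860 to 4.13, with replicate 3 lowest, against 2.45 to 2.74 at E11.5 and 1.49 to 1.79 at E12.5. Pdgfb and Pdgfd lie near opposite ends of GC content (percentiles 95.5 and 6.0), so a library's GC trend enters this ratio. In E10.5 replicate 3 they were at 6.26 and 5.51 CPM, and at 8.38 and 4.26 CPM after removal of that trend. The ratio of Pdgfb plus Pdgfd to Pdgfrb was 0.128 to 0.330 at E10.5, from 0.101 to 0.113 at E11.5 and from 0.134 to 0.208 at E12.5 (exact p = 0.132, adjusted p = 0.165). The ratios of Pdgfra to Pdgfrb and of Pdgfa to Pdgfc passed without E10.5 replicate 3 (exact test, adjusted p of 0.00595 and 0.0268) and did not when any 1 of the other 8 libraries was left out (adjusted p of 0.0536 to 0.138 and 0.0536 to 0.0804). Without E10.5 replicate 3, the ratio of Pdgfb to Pdgfd passed as well (exact test, adjusted p = 0.00595). Leaving out a library also leaves fewer assignments, but a ratio could still pass, as it did without E10.5 replicate 3.

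**Figure D5:**
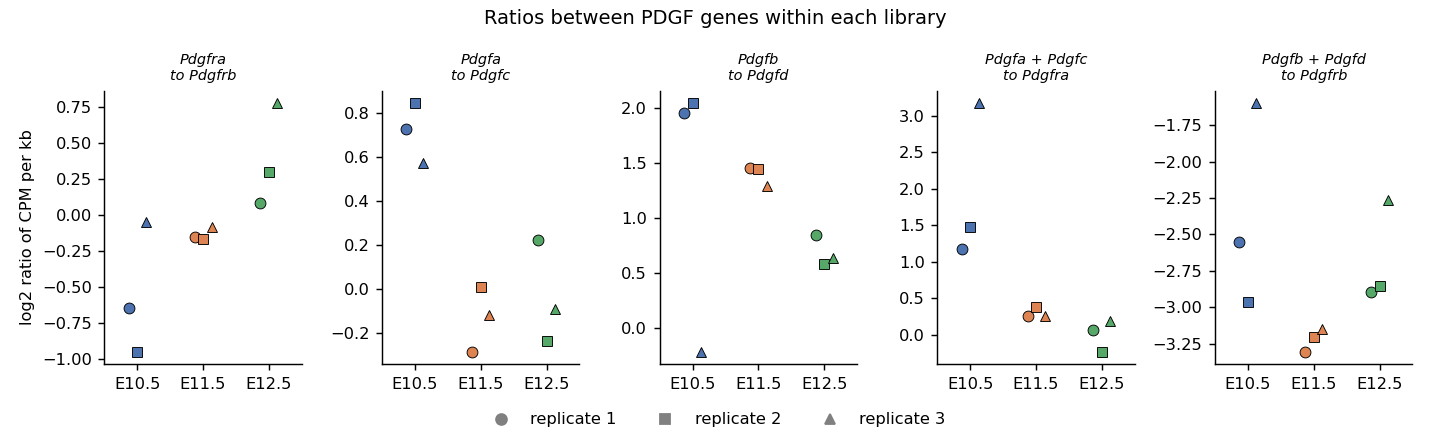
Log2 of 5 within-library ratios of CPM per kilobase by stage, with a marker shape per replicate number. The ratio of Pdgfa plus Pdgfc to Pdgfra is above 1 on the log2 axis in all E10.5 libraries and below 0.4 in all later ones. E10.5 replicate 3 stands off in that ratio, at 3.17 against 1.18 and 1.47 in replicates 1 and 2, and also in the ratios with Pdgfb and Pdgfd.

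Other genes of the pathway were read from 7 lists, of which 95 of 98 symbols were in the table and 92 genes were tested in each comparison. Of these, 5 were called in E11.5 vs. E10.5 (4 up, 1 down), 3 in E12.5 vs. E11.5 (2 up, 1 down) and 12 in E12.5 vs. E10.5 (9 up, 3 down). The shares, 5.43%, 3.26% and 13%, were near those of all genes, 6.07%, 5.1% and 15%.

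Genes for processing and binding of the ligands included 4 that were called, Serpine2, Pcsk5, A2m and Sparc. Serpine2, a protease inhibitor, rose by a log2 fold change of 1.24 in E11.5 vs. E10.5 (adjusted p = 0.00104) and 1.79 in E12.5 vs. E10.5 (adjusted p = 3.16e-05). Pcsk5, a proprotein convertase, rose by 1.15 (adjusted p = 0.0125) and 1.28 (adjusted p = 0.00182), the first not called without E10.5 replicate 3, E11.5 replicate 1 or E11.5 replicate 3. A2m, a protease inhibitor that also binds growth factors, fell by 1.72 (adjusted p = 0.00388) and fell by 2.52 (adjusted p = 0.000542) on the log2 scale, from 6.01 CPM at E10.5. Sparc, a matrix protein that binds PDGF, rose from 147 to 469 CPM in E12.5 vs. E10.5 (log2 1.68, adjusted p = 5.6e-05). Of the 11 genes in this list, 2 were called up and 1 down in the first interval, 0 in the second, and 3 up and 1 down over the whole span. Of all genes, 3.46% were called up and 2.61% down in the first interval, 4.14% and 0.962% in the second, and 9.97% and 5.08% over the span. The list was chosen with earlier results of these data known. The calls of Serpine2, A2m and Sparc were kept in every fit that left out a library. Over the list the median log2 difference was 0.256, 0.112 and 0.439 in those comparisons, against -0.032, 0.019 and -0.0063 over all genes.

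Of 8 co-receptors and related genes, 2 were called up in the first interval, 1 in the second and 3 over the whole span, and 0 were called down. Of all genes, 3.46%, 4.14% and 9.97% were called up in these comparisons. This list, too, was chosen with earlier results known. Nrp2, a neuropilin, rose by 1.34 (adjusted p = 0.0255) in the first interval and 1.26 (adjusted p = 0.0162) over the span, the latter not called without E10.5 replicate 3 or E12.5 replicate 2. Pdgfrl, a PDGF receptor-like gene, rose by 1.21 (adjusted p = 0.0214) and 1.76 (adjusted p = 0.00205), from 1.41 CPM at E10.5. For the first interval, both calls were lost in 4 of the 6 fits that leave out a library (E10.5 replicate 2 and each E11.5 replicate). Cd44, a hyaluronan receptor, rose from 6.82 to 18.8 CPM in E12.5 vs. E11.5 (log2 1.46, adjusted p = 0.000296) and by 1.11 in E12.5 vs. E10.5 (adjusted p = 0.00888), the latter lost without E10.5 replicate 2.

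Few genes downstream of the receptors were called, but few of all genes were, so this is not read as a trait of these lists. Of 27 receptor-proximal signalling genes, 0 were called by edgeR in either interval, where 6.07% and 5.1% of all genes were called. By the adjusted p alone 3 and 0 passed, as did 11.8% and 12.2% of all genes. Of 18 genes of the Ras, Akt and Srf branch, 0 were called by edgeR in any comparison, where 6.07%, 5.1% and 15% of all genes were called. By the adjusted p alone 0, 0 and 1 passed, the last in E12.5 vs. E10.5, where 24.6% of all genes did. Among 16 negative regulators, only Socs1, a suppressor of cytokine signalling, was called, rising by 1.17 in E12.5 vs. E11.5 (adjusted p = 0.00391) and 1.85 in E12.5 vs. E10.5 (adjusted p = 0.00196). By the adjusted p alone, 0, 3 and 5 of the 16 passed in the 3 comparisons, against 11.8%, 12.2% and 24.6% of all genes.

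The related class III and VEGF receptor families were read beside the PDGF genes. Of 7 other class III receptors and ligands, 4 were tested, and Kit, the receptor for stem cell factor, fell by 1.21 on the log2 scale in E12.5 vs. E10.5 (adjusted p = 0.00246). Of 8 VEGF ligands and receptors, Vegfd fell by 1.28 in E12.5 vs. E11.5 (adjusted p = 0.015) and fell by 1.84 in E12.5 vs. E10.5 (adjusted p = 0.00103), the former lost without E11.5 replicate 2 or E12.5 replicate 1. Pgf, a placental growth factor, rose by 1.01 in E12.5 vs. E10.5 (adjusted p = 0.0302), a value at the fold threshold that was not called in 4 of the 6 fits that leave out a library (E10.5 replicate 2, E10.5 replicate 3, E12.5 replicate 1 and E12.5 replicate 3).

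For each member, the 3 genes with the most similar course over the 9 libraries are given by Pearson r of log2 CPM among 16375 genes. For Pdgfra they were Glt8d2 (r = 0.992), Kcna6 (r = 0.992) and Runx2 (r = 0.991), a transcription factor of bone formation, and without E10.5 replicate 3 these r were 0.986, 0.982 and 0.984. For Pdgfrb they were Akna (0.988), Dchs1 (0.986) and Agbl5 (0.985). For Pdgfa they were Pno1 (0.989), Rars (0.986) and Nup43 (0.984), and for Pdgfc Rnf2 (0.988), Tcea1 (0.987) and Tor1aip2 (0.983). For Pdgfd they were Mal2 (0.987), 3110056K07Rik (0.977) and Btc (0.969), an EGF-family ligand. Without E10.5 replicate 3, these r were 0.921 to 0.990 for Pdgfrb, 0.914 to 0.954 for Pdgfa, 0.970 to 0.978 for Pdgfc and 0.979 to 0.987 for Pdgfd. For Pdgfb, She (0.976), Keap1 (0.972) and Jak3 (0.972) were most similar, but r fell to 0.735, 0.743 and 0.721 without E10.5 replicate 3. All points share stage and library depth, and E10.5 replicate 3, so these values only describe likeness of course.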

How the data were processed

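RNA was sequenced from pooled lambdoidal junction tissue, with 3 libraries at each of 3 stages. The deposited raw counts per gene came from featureCounts, run by the authors on HISAT2 2.0.5 alignments to GRCm38/mm10 after a FASTQC read check, with strand and multi-mapping settings not given in the sources used here. The deposited FPKM values served only as an alternative for ratios. A further 15 deposited columns, holding mean signals of normalised counts, log2 fold changes and p-values from the authors' own stage comparisons, were not used.

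Each pair of stages was tested on its 6 libraries with edgeR 4.0.16 in R 4.3.3 (filterByExpr, TMM, quasi-likelihood), with Benjamini-Hochberg adjustment over all genes tested, and all 9 libraries were fitted together for the test over 3 stages and for the difference between intervals. CPM used TMM over 9 libraries, and length was the deposited gene length. Total counts were 16581009 to 20836804 per library, and no pair of replicates agreed within counting noise. Members and lists were chosen with earlier results of these data known. From each list, up to 3 genes called up and 3 called down with the largest change were named, and the result of 1 comparison for receptor-proximal signalling genes is not reported here. Alternatives were other scaling, DESeq2 1.42.0, other filters on low counts, a 9-library fit, the replicate number as a block, removal of GC trends (lowess, span 0.3), no fold threshold and each library left out. Counts of list genes called without E10.5 replicate 3 were an alternative chosen after seeing the data. The code was tested on simulated data. Replicates are separate pools, so p-values measure the spread between pools.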

Additional observations from a re-analysis of the deposited data

How the results depend on the processing

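Pdgfra, the called member, stayed higher at E11.5 and E12.5 than at E10.5 under every alternative run. Differences that were not called did change sign, among them, without E10.5 replicate 3, Pdgfb between E10.5 and both later stages (-0.23 for E11.5, -0.17 for E12.5), Pdgfc in E12.5 vs. E10.5 (0.46) and Pdgfd in E11.5 vs. E10.5 (0.37). Without a fold threshold, Pdgfd was called in E12.5 vs. E11.5 (0.76), 1 member in place of 0. Testing all genes with at least 1 count made the difference between intervals pass for 2 members, Pdgfra (-1.03) and Pdgfrb (-1.002). Over 3 stages, Pdgfd passed with DESeq2 (adjusted p = 0.0455), at least 1 count (0.0401), the GC offset (0.0106) and the replicate block with GC offset (0.0143), and Pdgfrb with at least 1 count (0.000524) and the replicate block with GC offset (0.0136), so that 4 members in place of 2 passed in those last 2 settings. The causes were not tested. Leaving out single libraries gave 1.04 to 1.46 for Pdgfra in E11.5 vs. E10.5 (0 to 1 members called), 0.50 to 1.15 for Pdgfd in E12.5 vs. E10.5 (1 to 2 members called), and adjusted p over 3 stages of 0.00778 to 0.0567 for Pdgfa, 0.0171 to 0.994 for Pdgfc and 0.00403 to 0.191 for Pdgfd (1 to 4 members). The log2 ratios, E12.5 minus E10.5, then ranged from 0.73 to 1.18 for Pdgfra to Pdgfrb, -0.88 to -0.65 for Pdgfa to Pdgfc, -1.32 to -0.18 for Pdgfb to Pdgfd and -2.32 to -1.32 for Pdgfa plus Pdgfc to Pdgfra (0 to 4 ratios passing). Libraries with the same replicate number correlated between -0.151 and 0.22 in their deviations from stage means, so the numbers were not taken as pairing. Permuting within the replicate block allowed 216 assignments (smallest p 0.0278), and 0 of 5 ratios passed, with the same differences of 0.93 (exact adjusted p = 0.0926), -0.75 (0.104) and -1.93 (0.0926). Of the other calls named in the report, the replicate block alone changed 1, Pdgfrl in E11.5 vs. E10.5 (log2 1.2031, adjusted p = 0.0573), so that 1 co-receptor in place of 2 was called up. With the GC offset added, Socs1 in E12.5 vs. E11.5 (0.995) and Pgf in E12.5 vs. E10.5 (0.966) were under the fold threshold. Pgf was also under it with DESeq2 size factors (0.993), with DESeq2 (0.995) and with the GC offset alone (0.947). Among the pathway list counts given above, those without E10.5 replicate 3 differed for ligand processing and binding in E11.5 vs. E10.5 (1 up in place of 2) and, in E12.5 vs. E10.5, for co-receptors (2 up in place of 3) and VEGF genes (0 up in place of 1, 2 down in place of 1). Depth limits mainly Pdgfd, with 42 to 128 counts per library.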
